A study of Mus musculus with 10 samples.

Results

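The genes described here are the 8 that encode the known mechanotransduction channel complex and the tip link of hair cells (HCs): *Tmc1*, *Tmc2*, *Tmie*, *Lhfpl5*, *Cib2*, *Cib3*, *Pcdh15* and *Cdh23*. They were taken by symbol, and all 8 were found among the 32285 genes of the count tables. Each was measured in unique molecular identifiers (UMIs), which count a captured transcript once. The samples were single-cell libraries of wild-type CBA/J mice of 22 months, of both sexes, and each library pooled 7 to 8 mice. A total of 5 libraries came from the cochlea and 5 from the vestibular organs. Values of young mice were not used here, so no value below is a change with age. The CBA/J mouse loses hearing only late in life.

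HCs turn deflection of their stereocilia into current. A tip link, made of cadherin 23 above and protocadherin 15 below, pulls on a channel whose pore is formed by the transmembrane channel-like proteins TMC1 and TMC2. TMIE and LHFPL5 connect the tip link to this pore, and CIB2 and CIB3 are calcium- and integrin-binding partners of the TMC proteins. TMC2 is known to precede TMC1 in development and to fade from the cochlea, while vestibular HCs keep it.

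Replicates 1 and 2 of each organ shared 1313 of 1313 cochlear and 1633 of 1641 vestibular barcodes of replicate 2, and their counts differed by less than sampling noise, so they were counted as 1 sample, represented by replicate 1 (n = 4 per organ). Other pairs of libraries of an organ shared at most 17 barcodes. The libraries used held 2738036 to 26974948 UMIs in 1130 to 12397 barcodes, and 571 to 5438 cells passed the filters, most of them in replicate 3 of either organ. P-values therefore measure the spread between pools of animals. Cells were clustered without the 8 genes, and HC clusters were named from *Myo6*, *Myo7a*, *Pou4f3*, *Kncn*, *Gfi1* and *Xirp2*, of which all 6 were enriched in each such cluster. This gave 222 cochlear HCs (cHCs) and 1753 vestibular HCs (vHCs). The names of types stand for cells that resemble them by markers. The 145 inner HCs (IHCs) and 77 outer HCs (OHCs) rest on 5 markers each, although 1 IHC subcluster of 30 cells passed for *Otof* and *Calb2* alone. The 1480 type I HCs rest on *Adam11* and *Spp1*, joined by *Ocm* in 1 subcluster, and the 212 type II HCs on *Sox2*, *Mapt*, *Anxa4* and *Calb2*. The type II marker *Mapt* also passed in the type I subclusters of 591 and 72 cells, with a UMI in 26.4% and 41.7% of cells. In type II HCs it was found in 43.4%. A vestibular subcluster of 61 HCs stayed unnamed, and 518 further vestibular cells with HC markers were set aside because their leading genes were those of supporting or stromal cells.

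Some of the named HCs carried genes of other cells. A subcluster of 71 IHCs (median depth 15412 UMIs) had a *Sox2* UMI in 81.7% of cells, against 15.9% in the next IHC subcluster and 0% in the last. The 8 supporting-cell markers summed to 849 to 2371 CPM (UMIs scaled so that the cells of a kind in a library have the same total everywhere) in the IHCs of the 4 libraries, 0 to 205 in OHCs, 36.2 to 78.9 in type I HCs, 675 to 834 in type II HCs and 3565 to 4586 in cochlear supporting cells. The list holds *Sox2*, which also served to name type II HCs and stood at 544 CPM over all of them, so that most of their sum is a marker of the type. Without the 71 cells the IHCs of replicates 3, 4 and 5 summed to 188, 116 and 248, and replicate 1 kept 1 IHC, so that it left the fits of IHCs without these cells. The 6 macrophage markers summed to at most 6.12 in IHCs and 0 in OHCs. The 7 fibrocyte and stromal markers summed to 41.7 to 230 in IHCs and 219 to 1697 in OHCs, and to 139 to 707 in type I and 221 to 669 in type II HCs. The part of such RNA in the results was not tested, but each comparison with IHCs is given below with and without the 71 cells where the call changed. In addition, 9 cHCs of replicate 3, 8 of them named IHCs, held at least 20 UMIs of *Spp1*, a gene found in 99.3% to 100% of the cells of each type I subcluster. The other 213 cHCs held at most 3.

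On GRCm38 (mm10), the genes lie at chr19:20783458-20954202 (*Tmc1*, minus strand), chr2:130195194-130264445 (*Tmc2*, plus), chr9:110865711-110880113 (*Tmie*, minus), chr17:28575641-28585679 (*Lhfpl5*, plus), chr9:54544794-54560218 (*Cib2*, minus), chr8:72204335-72212837 (*Cib3*, minus), chr10:73099342-74649737 (*Pcdh15*, plus) and chr10:60302748-60696490 (*Cdh23*, minus). The paralogs are on different chromosomes. Genes on the opposite strand overlap several of them. *Sh2d7*, at the end of *Cib2*, had 14 UMIs in cHCs and 6 in vHCs, *Vsir*, within *Cdh23*, had 1 and 3, and *Als2cl*, at the start of *Tmie*, had 5 and 38, all far below the counts of the gene they overlap.

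*Tmc1* and *Cdh23* were at or near 0 in most cells other than HCs of both organs, and the 250 bases before their starts in RefSeq (GRCm38.p6, minus strand), which overlap no annotated exon, are shown for that reason. An E-box is the motif that basic helix-loop-helix factors such as ATOH1 bind. It was searched on both strands as CAGATG, as CAGCTG (its own reverse complement) and as CAGGTG. Neither window holds one of these forms, so all letters are in lower case. Other forms of the E-box were not searched, so lower case does not mean that a window has no E-box.
Tmc1, chr19:20954203-20954452: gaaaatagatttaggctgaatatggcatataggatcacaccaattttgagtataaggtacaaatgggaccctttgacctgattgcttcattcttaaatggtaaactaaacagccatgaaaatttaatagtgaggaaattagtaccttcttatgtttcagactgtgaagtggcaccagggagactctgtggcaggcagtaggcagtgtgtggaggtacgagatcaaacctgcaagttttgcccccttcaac
Cdh23, chr10:60696491-60696740: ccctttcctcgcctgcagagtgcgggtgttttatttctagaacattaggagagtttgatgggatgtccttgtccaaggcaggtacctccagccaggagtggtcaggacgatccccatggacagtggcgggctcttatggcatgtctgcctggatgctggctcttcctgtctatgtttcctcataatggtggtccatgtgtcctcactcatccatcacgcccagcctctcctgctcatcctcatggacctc
Of the 8 genes, 7 had a RefSeq window. CAGATG stood in 14.4%, CAGCTG in 13% and CAGGTG in 17.2% of 32851 promoters of this length. Of the 7 windows, CAGATG stood in 1 (*Cib3*), CAGCTG in 3 (*Cib3*, *Lhfpl5* and *Tmie*) and CAGGTG in 2 (*Cib3* and *Pcdh15*). Those of *Lhfpl5* and *Tmie* overlap annotated exons. That of *Cib3* appears to hold transcribed sequence that the annotation lacks, so its motifs cannot be taken to lie upstream of the transcript. The other windows were not searched for such sequence.

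The question of the first comparison was how cHCs and vHCs of the same age differ. The clearest contrast lay in the paired paralogs: cHCs held *Cib2* with almost no *Cib3* and *Tmc1* with no *Tmc2*, whereas vHCs held mostly *Cib3* and also *Tmc2*. *Cdh23* and *Lhfpl5* were higher in cHCs and *Tmie* was lower, while *Tmc1* and *Pcdh15* passed no threshold. The sums of cHCs hold mostly UMIs of IHCs (240007 to 817255 per library, against 27422 to 84033 of OHCs). Mean *Tmie* was 61.1 CPM in IHCs and 366 in OHCs, against 247 in vHCs. *Tmc1* was 281 and 905 against 471, and *Pcdh15* 51.9 and 136 against 68.1. For these genes the result of cHCs is therefore not that of OHCs, which were not tested alone against vHCs. Levels below are CPM. The kit reads 3′ ends, so a level depends on the gene's own capture and is compared within a gene. In such sums, fewer cells of a type and less RNA per cell cannot be told apart.

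*Cib2* stood at 1909, 1898, 2244 and 1867 in the cHCs of replicates 1, 3, 4 and 5, and at 315, 263, 248 and 325 in vHCs. The ranges did not overlap. The log2 difference, cHCs minus vHCs, was 2.81 (SE 0.22, edgeR adjusted p = 1.65e-09). *Cib3* went the other way, with 1536, 1532, 1687 and 1360 in vHCs and 0, 37.7, 0 and 0 in cHCs (log2 difference -6.54, SE 0.53, edgeR adjusted p = 3.98e-09). All 34 *Cib3* UMIs of cHCs came from 7 cells of replicate 3, each of which held 54 to 181 *Spp1* UMIs and 0 of which had a UMI of the OHC motor gene *Slc26a5*. Without the 9 cHCs rich in *Spp1*, the cHCs held 0 *Cib3* UMIs, and the mean of vHCs (1529) was at least 904-fold higher than the limit that a count of 0 allows over the remaining cHCs (3 UMIs, or 1.69 CPM).

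*Tmc2* had 0 UMIs in the cHCs of every library, against 39.7, 59.9, 84.0 and 53.7 CPM in vHCs. With 3 counts as the limit (1.65 CPM over all cHCs), *Tmc2* was at least 35.9-fold higher in vHCs (edgeR adjusted p = 1.66e-07). *Tmc1*, the pore subunit that mature HCs of both organs share, stood at 463, 383, 271 and 372 in cHCs and at 634, 384, 414 and 452 in vHCs. These ranges overlapped, and the difference of -0.30 (SE 0.21) did not pass the test (edgeR adjusted p = 0.295). Without the 71 deep IHCs it was 0.33 (SE 0.26), also short of the threshold (edgeR adjusted p = 0.38).

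The other channel partners also differed. *Lhfpl5*, the tetraspan protein that binds protocadherin 15, stood at 540, 772, 858 and 605 in cHCs and at 387, 428, 408 and 368 in vHCs (log2 difference 0.84, SE 0.21, edgeR adjusted p = 0.00282), although against type II HCs alone the difference of 0.43 did not pass (edgeR adjusted p = 0.137). The lowest cochlear library lay above the highest vestibular one. *Tmie* was lower in cHCs, at 150, 86.5, 110 and 76.9 against 252, 218, 288 and 228 (log2 difference -1.21, SE 0.21, edgeR adjusted p = 9.19e-05). Without the 71 deep IHCs the difference was -0.48 (SE 0.30) and no longer passed (edgeR adjusted p = 0.249).

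The tip-link genes did not move together. *Cdh23* stood at 195, 97.6, 89.2 and 115 in cHCs and at 62.0, 40.2, 49.8 and 37.5 in vHCs, with no overlap (log2 difference 1.42, SE 0.23, edgeR adjusted p = 3.8e-05). *Pcdh15* was 79.8, 59.9, 58.3 and 51.2 in cHCs and 105, 56.0, 57.2 and 53.7 in vHCs. Its difference was -0.04 (SE 0.24, edgeR adjusted p = 0.911). Of the 8 genes, 3 were higher and 3 lower in cHCs, whereas 37.9% of the 8936 genes tested passed in this comparison, 17.4% higher and 20.5% lower. The median log2 difference was -0.17 over the 8 genes and -0.03 over all genes tested. The 5 neuron markers summed to 1406 to 1921 in type I and 1008 to 1693 in type II HCs, against 90.9 to 182 in the cochlear types.

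**Figure D1:**
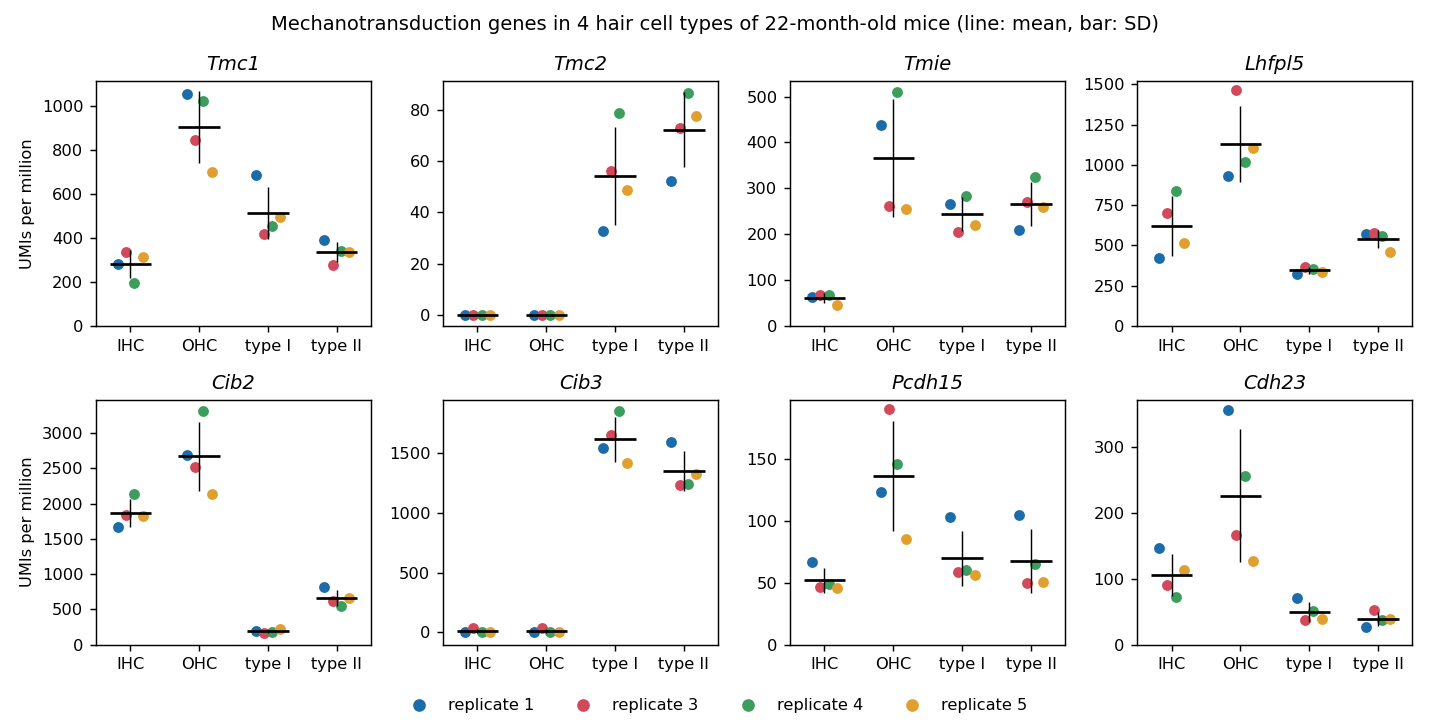
CPM (y axis, linear) of each gene in IHCs, OHCs, type I and type II HCs; points are libraries, coloured by replicate, lines are means and bars SD (n = 4). *Cib3* lies between 1230 and 1856 in the vestibular types and at or below 37.9 in the cochlear types, and *Tmc2* has no cochlear point above 0.

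A ratio of paralogs within a library does not depend on its depth. *Cib3* made up 83.0%, 85.3%, 87.2% and 80.7% of the *Cib2* and *Cib3* UMIs in vHCs, and 0%, 1.95%, 0% and 0% in cHCs. The upper bounds of the exact 95% binomial interval for the 3 cochlear libraries at 0 were 0.615%, 0.562% and 0.631%. *Tmc2* made up 5.89%, 13.5%, 16.9% and 10.6% of the *Tmc1* and *Tmc2* UMIs in vHCs and 0% in each cochlear library, with upper bounds from 1.06% to 4.56%. These intervals cover counting error only. Every vestibular library lay above every cochlear one for both shares. In the exact two-sided permutation test of 4 libraries against 4, p was 0.0286 for each, the smallest value this design allows, and 0.0571 after adjustment over the 4 share tests.

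*Cib2* was found in 212 of 222 cHCs (95.5%) and *Cib3* in 7 (3.15%), while *Cib3* was found in 81.6% of vHCs and *Cib2* in 37.7%. In macrophages, which are not known to use these genes, *Cib2* was found in 9.02% of cochlear and 11.9% of vestibular cells, and *Cib3* in 0 of 388 cochlear cells, which allows a share of up to 0.773% of cells with a UMI, and in 4.14% of vestibular ones. The median depth was 5402 UMIs in cHCs, 4065 in vHCs, and 2399.5 and 2947.5 in the macrophages. With each cell thinned to 1000 UMIs, *Cib2* was found in 82.4% of cHCs and 17.6% of vHCs, and *Cib3* in 2.70% and 65.7%. *Tmc2* was found in 20.6% of vHCs (6.22% thinned) and in 0 of 222 cHCs, which allows up to 1.35%. These limits are for cells with a captured UMI, and a cell without one may still express the gene.

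**Figure D2:**
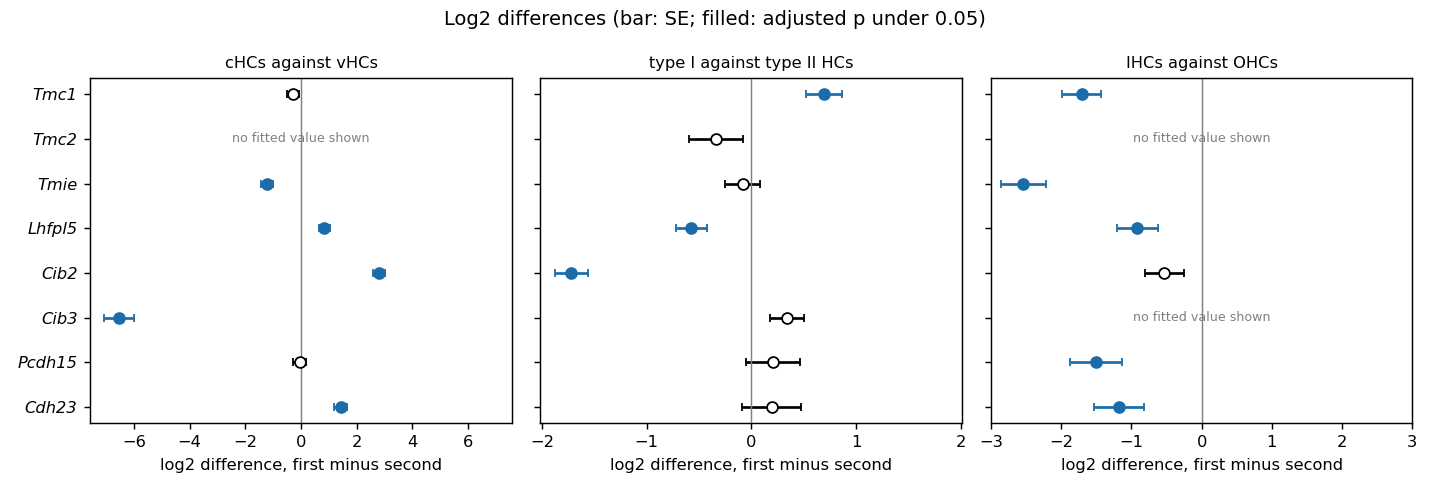
Log2 differences (x axis, first group minus second) of the 8 genes in the comparisons of HCs, with SE bars; filled points passed at an adjusted p of 0.05. No fitted value is drawn where a group had no UMI or the gene did not pass the filter; *Cib2* at 2.81 and *Cib3* at -6.54 stand farthest from 0 between the organs.

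The second comparison asked how type I HCs, the flask-shaped cells enclosed by a calyx, differ from type II HCs, which bear bouton endings. Summed over their subclusters, type I HCs had more *Tmc1* and less *Lhfpl5* and *Cib2* than type II HCs of the same library. The lower *Lhfpl5* and *Cib2* did not extend to the type I subcluster of 192 cells with *Ocm*, described below. Its *Cib2* was 734 to 761 CPM and its *Lhfpl5* 524 to 738. *Cib2* was 192, 170, 179 and 220 CPM in type I and 817, 619, 552 and 667 in type II HCs (log2 difference, type I minus type II, -1.72, SE 0.16, edgeR adjusted p = 1.05e-08). The lowest type II library held more than the highest type I library. *Tmc1* was 685, 419, 454 and 495 in type I and 391, 276, 341 and 337 in type II HCs (log2 difference 0.70, SE 0.17, edgeR adjusted p = 0.00499). When the set-aside cells were kept as HCs this difference was 0.26 and no longer passed (edgeR adjusted p = 0.435). *Lhfpl5* was 321, 365, 357 and 336 against 574, 579, 557 and 457 (log2 difference -0.57, SE 0.15, edgeR adjusted p = 0.0072), with no overlap. Without replicate 3 it was -0.55 (edgeR adjusted p = 0.0713).

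*Cib3* was high in both types, at 1539, 1651, 1856 and 1417 in type I and 1590, 1230, 1244 and 1329 in type II HCs. Its difference of 0.34 (SE 0.16) did not pass (edgeR adjusted p = 0.186) unless the library was a replicate block, since both types of a number come from 1 library (edgeR adjusted p = 0.0147 with the block). *Tmc2* stood at 32.7, 56.2, 78.8 and 48.6 in type I and 52.1, 72.7, 86.5 and 77.5 in type II HCs, higher in type II in all 4 libraries, with a difference of -0.34 (SE 0.25, edgeR adjusted p = 0.466). *Tmie*, *Pcdh15* and *Cdh23* differed by -0.08, 0.21 and 0.19 (SE 0.16, 0.26 and 0.28) and did not pass. In this comparison 15.9% of 7478 genes passed, 7.46% higher and 8.42% lower in type I, and of the 8 genes 1 was higher and 2 lower. Beside *Tmc1*, *Atp2b2*, the calcium pump of hair bundles, was higher in type I HCs.

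The balance of *Cib2* and *Cib3* differed between the types in every library. *Cib3* made up 88.9%, 90.6%, 91.2% and 86.6% of both in type I and 66.1%, 66.5%, 69.3% and 66.6% in type II HCs, a mean difference of 22.2 percentage points. *Tmc2* made up 4.56%, 11.8%, 14.8% and 8.95% of the *Tmc* pair in type I and 11.8%, 20.8%, 20.3% and 18.7% in type II HCs, a mean difference of -7.85 points. Both differences had the same sign in 4 of 4 libraries. The exact sign-flip test gave 0.125 for each, which is the smallest p that 4 pairs allow, so it could not pass 0.05. Per cell, UMIs of both *Cib* genes were found in 66.0% of type II HCs and 18.7% of type I HCs, at median depths of 4487 and 3966 UMIs. At 1000 UMIs per cell these shares were 28.3% and 4.12%, and in vestibular macrophages 0.552% held both before thinning.

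Within the vestibule the paralog pattern also followed the subclusters, which had been made without these 8 genes. Since they were chosen for description after their values were seen, no test is given. The subcluster with *Ocm*, *Calb1*, *Gbx2* and *Cntnap5a* among its leading genes held 192 type I HCs. *Ocm* encodes oncomodulin, which marks type I HCs of the striola and of the central crista. In these cells 1 *Tmc2* UMI was found in all, in replicate 3, while *Tmc1* had 450 UMIs. Their *Cib2* levels were 734, 735, 759 and 761 CPM and their *Cib3* levels 181, 269, 358 and 237. In the 4 other type I subclusters, *Tmc2* ranged from 25.1 to 163 over the libraries with at least 5 cells, *Cib2* from 23.3 to 168 and *Cib3* from 1028 to 2414. The *Ocm* cells thus lay outside all 3 ranges in every library. *Cib3* made up 19.8%, 26.8%, 32.1% and 23.7% of their *Cib* UMIs and at least 89.7% in each library of the others. Type II HCs, at 66.1% to 69.3%, lay between them.

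*Lhfpl5* was also higher in the *Ocm* cells, at 524 to 738 against 130 to 403 in the other type I subclusters. *Tmc1*, at 454 to 743 against 319 to 811, and *Tmie*, at 215 to 389 against 188 to 314, overlapped. The *Ocm* subcluster had a median depth of 4035.5 UMIs, and the 4 other type I subclusters had 4247, 4661, 1601 and 7752, so that 3 of the 4 were deeper. The part of depth in its *Tmc2* count was not tested. The unnamed subcluster of 61 HCs, which carried both *Ocm* and *Sox2* and was led by *Zp3* and *Slc8a1*, had *Cib2* at 537 to 865, *Lhfpl5* at 569 to 1085, *Cib3* at 342 to 1361 and *Tmc2* at 37.9 to 139, from 38 *Tmc2* UMIs. All 4 ranges overlapped those of type II HCs, for *Cib3* through replicate 1 alone (8 cells). Its *Cib2*, *Lhfpl5* and *Cib3* ranges overlapped those of the *Ocm* cells. *Cib3* made up 64.4%, 28.4%, 47.5% and 32.8% of its *Cib* UMIs, below the 66.1% to 69.3% of type II HCs. *Adam11* was found in 1.64% of its cells. Its *Tmc1* was low in replicates 3, 4 and 5 (75.4, 77.9 and 152) and higher in replicate 1 (528). *Tmc2* reached 53.6% and 64.0% of its *Tmc* UMIs in replicates 3 and 4, from 28 and 25 UMIs.

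**Figure D3:**
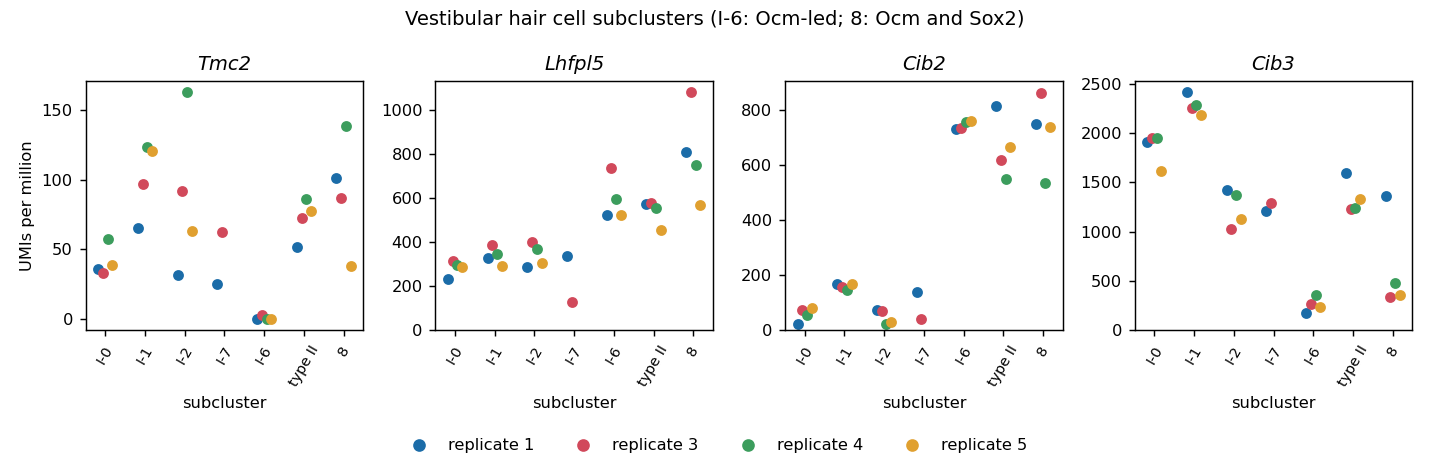
CPM (y axis, linear) of *Tmc2*, *Lhfpl5*, *Cib2* and *Cib3* in the vestibular HC subclusters (x axis; I marks type I); points are libraries with at least 5 cells. The *Ocm*-led subcluster I-6 lies at or below 2.83 for *Tmc2* and at 734 to 761 for *Cib2*.

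**Figure D4:**
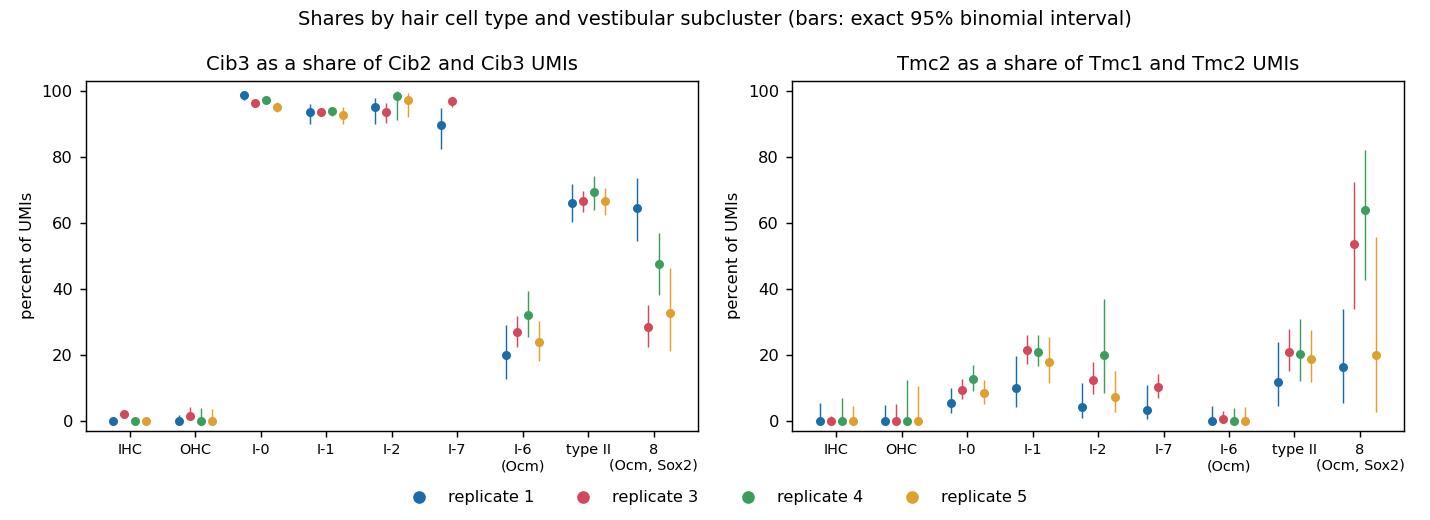
*Cib3* share of *Cib2* and *Cib3* UMIs (left) and *Tmc2* share of *Tmc1* and *Tmc2* UMIs (right), in percent, by HC type and vestibular subcluster; points are libraries and bars exact 95% binomial intervals. The *Cib3* share is 19.8% to 32.1% in I-6, 66.1% to 69.3% in type II HCs and 89.7% to 98.8% in the other type I subclusters.

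The third comparison set IHCs, the cells that signal to the auditory nerve, against OHCs, the electromotile amplifiers. As CPM, OHCs held more of most genes of the complex. *Tmc1* was 283, 335, 193 and 313 in IHCs and 1052, 845, 1021 and 700 in OHCs (log2 difference, IHCs minus OHCs, -1.70, SE 0.28, edgeR adjusted p = 5.42e-05). *Tmie* was 62.5, 68.5, 68.2 and 45.3 in IHCs and 437, 262, 511 and 255 in OHCs (log2 difference -2.54, SE 0.32, edgeR adjusted p = 1.99e-06). For both, the lowest OHC library lay above the highest IHC library. Without the 71 deep IHCs, and so without the IHCs of replicate 1, the differences were -1.56 and -2.67, and both still passed.

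The tip-link genes were lower in IHCs as well. *Pcdh15* was 66.7, 46.5, 49.2 and 45.3 in IHCs and 123, 190, 146 and 84.8 in OHCs (log2 difference -1.50, SE 0.37, edgeR adjusted p = 0.00393). It rested on 79 and 33 UMIs, it lost the call without replicate 3 (-1.09, edgeR adjusted p = 0.166), and without the deep IHCs it did not pass the filter on low counts. *Cdh23* was 146, 90.5, 72.0 and 113 against 355, 167, 255 and 127, with ranges that overlapped (log2 difference -1.17, SE 0.36, edgeR adjusted p = 0.0191). Its call was lost without replicate 1, 3 or 4 (edgeR adjusted p from 0.0774 to 0.109).

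*Lhfpl5* was 421, 701, 841 and 517 in IHCs and 929, 1464, 1021 and 1103 in OHCs (log2 difference -0.91, SE 0.29, edgeR adjusted p = 0.0258). Without the deep IHCs, which also leaves out the IHCs of replicate 1, it was -0.39 (edgeR adjusted p = 0.286), and without replicate 3 or 5 it also failed the threshold (edgeR adjusted p = 0.209 and 0.186). *Cib2* was 1671, 1834, 2133 and 1818 in IHCs and 2692, 2523, 3319 and 2142 in OHCs. These ranges did not overlap, but the difference of -0.53 (SE 0.28) did not pass (edgeR adjusted p = 0.199). *Tmc2* had no UMI in either type and *Cib3* 31 and 3, and neither could be tested. Here 20.8% of 2970 genes passed, 10.6% higher and 10.2% lower in IHCs, and of the 6 genes tested 5 were lower in IHCs and none higher. Cell depth differed, at a median of 9958 UMIs for IHCs and 2617 for OHCs. Thinned to 1000 UMIs, *Tmc1* was found in 24.1% of IHCs and 57.1% of OHCs, and *Tmie* in 6.21% and 32.5%. CPM and thinned shares are both relative to total UMIs, so a higher value in OHCs is not by itself a higher count per cell. *Tmc1*, *Lhfpl5*, *Cib2*, *Pcdh15*, *Cdh23* and *Tmie* had 476, 1033, 2945, 79, 158 and 101 UMIs in the 145 IHCs. The 77 OHCs held 209, 271, 601, 33, 53 and 80.

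Of the 8 genes, 7 were lower in vestibular supporting cells than in vHCs. In vestibular supporting cells, the epithelial cells that surround HCs, *Tmc1* was 15.5 ± 5.09, *Lhfpl5* 17.1 ± 7.56, *Cib3* 55.0 ± 24.9, *Tmie* 47.9 ± 13.1, *Cib2* 56.5 ± 26.1, *Cdh23* 3.24 ± 2.29 and *Tmc2* 2.81 ± 1.72 CPM (mean ± SD, n = 4). The log2 difference of vHCs over these cells ran from 2.10 for *Tmie* to 4.58 for *Tmc2*, with all 7 past the threshold (largest edgeR adjusted p = 4.85e-08, for *Cdh23*). In this comparison 58.7% of 9250 genes passed, 29.2% higher and 29.5% lower in vHCs. *Cib3* was found in every one of the 21 other vestibular classes and clusters of at least 50 cells, from 3.48 to 115 CPM, and in 2 of 22 in the cochlea. *Tmc1* was also found in all 21 of the vestibule, at 1.07 to 37.1. The highest vestibular value of both genes was that of glia (88 cells), from 17 UMIs of *Cib3* and 3 of *Tmc1*. Means of classes other than HCs had no minimum of cells per library. Whether RNA free in the suspension adds to these low levels was not tested.

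*Pcdh15* was the exception. It stood at 68.1 ± 24.9 in vHCs and 41.5 ± 13.1 in vestibular supporting cells (log2 difference 0.42, SE 0.25, edgeR adjusted p = 0.147, but 0.0411 with the library as a replicate block and 0.027 without the filter on low counts). In the cochlea it was 62.3 ± 12.3 in cHCs and 45.8 ± 11.1 in supporting cells (log2 difference 0.24, SE 0.25, edgeR adjusted p = 0.489). It reached 130 ± 140 in an unnamed cochlear cluster of 114 cells led by *Lmo3*, *Npnt*, *Ucma* and *Tnnt2*, from 34.1 to 337 over the libraries, 71.6 ± 47.0 in vestibular marginal or dark cells, which secrete potassium, and 49.96 ± 14.3 in a cochlear cluster of 566 cells led by *Epyc*. The values of the cluster of 114 cells and of the marginal or dark cells rested on 32 and 21 *Pcdh15* UMIs. The gene had 0 UMIs in cochlear macrophages, roof epithelial cells, T cells and granulocytes. Of the 8 genes, *Pcdh15* alone had a mean level in other cells that exceeded those of both cHCs and vHCs, which is a description with no test.

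In cHCs against cochlear supporting cells, 5 of the 6 genes tested were higher, where 40.4% of 8124 genes passed and 18.8% were higher in cHCs. The differences were 8.73 for *Lhfpl5*, 7.47 for *Tmc1*, 4.47 for *Cib2* and 3.93 for *Tmie* on the log2 scale (largest edgeR adjusted p = 3.2e-07). *Cdh23* stood at 124 ± 48.3 in cHCs and at 0.376 in supporting cells, from 1 UMI. *Cib2* was the most widespread: it was found in all 22 other cochlear classes and clusters of at least 50 cells, at 268 ± 72.4 in neurons, 181 ± 70.1 in a cluster led by *Fbp2* and *Lgals1*, 129 ± 122 in one led by *Otoa* and *Slc26a4*, and 79.1 ± 14.9 in supporting cells. *Lhfpl5* was at 31.2 ± 21.1 in cochlear neurons, and *Tmie* at 83.9 ± 39.0 in vestibular marginal or dark cells. *Cdh23* outside HCs was highest in vestibular roof cells, at 10.7 ± 12.6 from 6 UMIs, and had no UMI in 18 of the 22 cochlear classes.

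**Figure D5:**
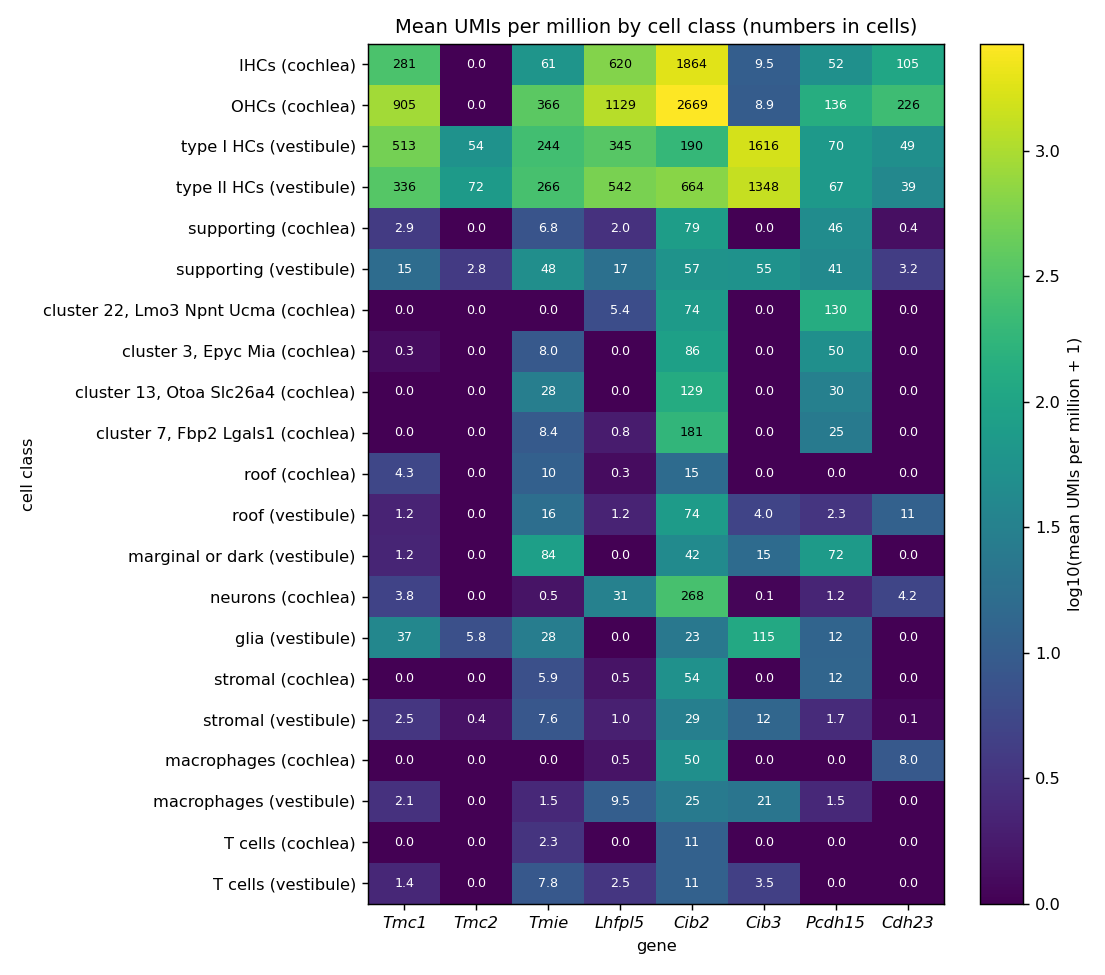
Mean CPM (number in each field, colour on a log10 scale) of the 8 genes (columns) in HC types and other classes or clusters (rows; up to 4 libraries). *Pcdh15* reads 130 in cluster 22 and 136 in OHCs, while *Tmc2* reads 0 in every cochlear row.

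Across 62 sums of a class in a library, over 24 classes with all HCs as 1 class per organ, *Tmc1* and *Lhfpl5* were the most alike of the 8 genes (Pearson r of log2 CPM plus 1, 0.85), followed by *Lhfpl5* and *Cdh23* (0.84) and *Cib2* and *Cdh23* (0.81). *Tmc2* and *Cib3* stood at 0.76, and *Cib2* and *Cib3* at 0.13. These values describe how alike the patterns are, and the sums of a library share its depth. Among 13366 genes, those most like *Tmc1* were *Lrtm2* (0.92), *Loxhd1* (0.90) and *Ppp1r27* (0.90), and those most like *Lhfpl5* were *Ppp1r27* (0.93), *Strc* (0.92) and *Smim18* (0.91). *Strc* (0.90), *Clrn2* (0.87) and *Gm5441* (0.87) came first for *Cdh23*. *Loxhd1* and *Strc* encode stereocilia proteins, and *Clrn2* a clarin.

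The genes most like *Cib3* were *Gm1113* (0.85), *Cacna2d4* (0.84) and *Ttc21a* (0.83), each lower in cHCs (7.39, 15.6 and 2.22 CPM) than in vHCs (326, 611 and 369). For *Tmc2* they were *Gm45261* (0.88), *Erich5* (0.86) and *Tnc* (0.84), with at most 0.277 CPM in cHCs. For *Cib2* they were *Cdh23* (0.81), *Prkra* (0.80) and *Klhdc7b* (0.80), and for *Tmie* *Eps8l2* (0.81), *2010300C02Rik* (0.79) and *Ccdc68* (0.77). *Pcdh15* was closest to *Heyl* (0.78), *Me1* (0.77) and *D7Ertd443e* (0.76). *Heyl* encodes a Notch target.

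A list of 24 genes that work with the complex or are relatives of its subunits was read in the same fits. Between cHCs and vHCs 10 of the 24 could be tested: *Clrn2* was higher in cHCs (log2 difference 0.93, SE 0.30, edgeR adjusted p = 0.0202), and *Atp2b2* (-3.18, SE 0.32), *Tmc4* (-2.20, SE 0.45) and *Loxhd1* (-0.70, SE 0.20) were lower. The sums of cHCs hold mostly UMIs of IHCs, in which *Atp2b2* and *Loxhd1* were lower than in OHCs, as given below. The results of these genes therefore need not hold for OHCs, which were not tested alone against vHCs. *Tomt*, which is needed to bring TMC proteins to the bundle, stood at 168 ± 29.6 and 222 ± 28.3 and did not pass. Of the other *Tmc* relatives, *Tmc3*, *Tmc5*, *Tmc7* and *Tmc8* had 0 UMIs in cHCs and at most 0.184 CPM in vHCs, and *Cib4* had 0 in both. Of all genes tested, 17.4% were higher and 20.5% lower, and the list's median was -0.34.

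Between type I and type II HCs 10 of the 24 were tested, and *Atp2b2* (2.80, SE 0.20) and *Loxhd1* (0.65, SE 0.17) were higher in type I while none was lower, where 7.46% and 8.42% of all genes were. In IHCs against OHCs 6 were tested, and *Atp2b2* (-4.57, SE 0.50), *Loxhd1* (-1.42, SE 0.30), *Tmem63b* (-1.12, SE 0.34) and *Tomt* (-1.08, SE 0.31) were lower in IHCs with none higher, where 10.2% and 10.6% of all genes were. Against supporting cells, 7 of 12 were higher in vHCs, led by *Clrn2* (4.97), *Clrn1* (4.47) and *Atp2b2* (4.42), where 29.2% of all genes were higher, and 4 were lower, where 29.5% were, led by *Tmc6* (-6.35), *Lhfpl2* (-2.45) and *Cib1* (-1.58). In the cochlea 8 of 10 were higher in cHCs and 2 lower, where 18.8% and 21.6% of all genes were, led by *Clrn2*, which had 0 UMIs in supporting cells, *Clrn1* (8.05) and *Loxhd1* (7.76), and the lower ones were *Tmc4* (-3.27) and *Cib1* (-0.83).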

How the data were processed

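Single-cell libraries of the cochlea and vestibular organs of 22-month-old CBA/J mice were used. The authors made the deposited values, UMI counts per gene and barcode without normalization, with Cell Ranger from reads aligned to mm10. Per the file headers, version 6.1.2 made replicates 3 to 5, and version 5.0.1 the others. Cells with at least 200 genes, 1000 UMIs and under 25% mitochondrial UMIs were clustered per organ in Seurat 5.3.0 (2000 variable genes without the 8 described here, 30 components, resolution 1), and HCs again at 0.5. An HC subcluster was set aside when at least 5 of its top 10 genes belonged to the top 100 of a cluster without HC markers. Scrublet in scanpy 1.11.5 marked 1 to 23 cells per library. This is too low a share to be relied on, and no doublet was taken out. UMIs were summed per library and population of at least 5 cells, and tested over all genes with edgeR 4.0.16 (TMM, filterByExpr, quasi-likelihood, Benjamini-Hochberg at 0.05), with DESeq2 1.42.0 as an alternative. In a simulation that gave 200 genes a log2 change of 2, 99.5%, 99.5% and 96.3% of changed genes were called for the organs, vestibular types and cochlear types, with 4.37%, 4.50% and 4.71% false calls. It gave all genes the same dispersion, so it checks the procedure only. The power for smaller changes and the error rate of the calls above were not measured. Types and classes of 1 number come from 1 library, which pairs them: deviations of type I and type II HCs correlated at 0.24, 0.15, 0.21 and 0.23. Genes named beyond the 8 are the 3 most alike per gene and up to 3 of the 24 in each direction per comparison. The genes and lists were chosen with earlier results of these data known. Gene positions are those of GENCODE M21.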

Additional observations from a re-analysis of the deposited data

Results flagged for a closer look

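Among 45 sets of 4 libraries, 6 had a library whose gap to the others passed Dixon's 95% value, where chance flags about 1 in 20 independent sets. The sets overlap, since cHCs hold the IHCs and OHCs and vHCs hold the type I HCs. The 6 flags are therefore not independent and cannot be set against that rate. *Cib3* in replicate 3 stood at 37.7 in cHCs, 37.9 in IHCs and 35.7 in OHCs, with 0 UMIs in the other 3 libraries each time. These flags go back to the same 7 cells, which held all 34 *Cib3* UMIs of cHCs and 54 to 181 *Spp1* UMIs each. *Pcdh15* in replicate 1 stood at 105 in vHCs (others 53.7 to 57.2) and at 102.8 in type I HCs (others 56.2 to 60.5). *Cib2* in replicate 4 stood at 2244 in cHCs (others 1867 to 1909). The cause was not tested.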

How the results depend on the processing

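The directions and calls of *Cib2*, *Cib3*, *Tmc2*, *Cdh23* and *Lhfpl5* between the organs held under all alternatives run, apart from *Lhfpl5* against type II HCs alone (0.43, adjusted p = 0.137). Differences that did not pass changed sign there: *Pcdh15* ranged from -0.14 to 0.16 without 1 replicate (above 0 without cochlea replicate 5 or vestibule replicate 1), and was 0.085 with set-aside clusters kept, 0.081 against type II HCs alone and 0.31 without the deep IHCs, and *Tmc1* was 0.087, 0.24 and 0.33 under the last 3. Against type II HCs alone 1782 genes were called in place of 3385. Between type I and type II HCs, *Tmie* was 0.019 without the filter, 0.047 with the stricter cell filter and -0.18 to 0.017 without 1 replicate, *Cdh23* was -0.029 with the stricter filter, -0.12 with set-aside clusters kept and -0.035 to 0.61 without 1 replicate, and *Cib3* was -0.021 with set-aside clusters kept. There 1796 genes in place of 1188 were called without the filter, and 735 to 1332 without 1 replicate (735 without replicate 3), with 1 of the 8 lower in type I in place of 2 without the filter and 1 to 2 without 1 replicate (1 without replicate 3), and 2 higher with the replicate block and 0 with set-aside clusters kept, in place of 1. In IHCs against OHCs, 1150 genes in place of 619 were called without the filter, and 2 of the 8 were lower in place of 5 without it and with the stricter cell filter, 3 with the 8 genes kept in clustering and without the deep IHCs (a fit without the IHCs of replicate 1), and 2 to 4 without 1 replicate (2 without replicate 3), where *Tmc1* and *Tmie* passed throughout. For cHCs against supporting cells, 1939 to 3985 genes in place of 3280 were called without 1 replicate (1939 without replicate 3). The cause was not tested, but leaving out samples or adding low genes changes what is tested. DESeq2 and its size factors moved no count by over 1.5 times. Cluster resolution left the HCs as they were. The labels do not pair the libraries of the organs beyond a shared number. Their deviations correlated at 0.18, 0.08, 0.20 and 0.05, each the highest for its own number, so libraries of the same number may be related. The main fit leaves this out, and the replicate block gave 3618 calls between the organs in place of 3385. Apart from *Cib3* and *Pcdh15* as given in the report, the block changed no other call of the 8 genes. The deep-IHC and *Spp1* alternatives were chosen after seeing the data. Of 528 levels under alternatives, 513 stayed within 1 SD, but many of these could not have moved further. Leaving out 1 library always shifts such a mean by less than 1 SD. Cluster resolution changed no HC, and replicate 2 repeats replicate 1. OHC values rest on 77 cells, which limits *Pcdh15*, *Cdh23* and *Cib3* most.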
